A study of Mus musculus with 4 samples.

Results

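The genes described here are 34 named genes of white and brown fat cells, covering fat storage, fat synthesis, heat production and the factors that control them. They form a list of symbols whose rule uses no signal threshold, though it was drawn up with earlier results of these data known. Of the 34, 29 had at least 1 probe set paired with their symbol alone, among 18193 genes so paired on the array, and these 29 genes had 62 probe sets. Cpt1b shared its only probe set with other symbols, and Plin1, Cfd, Acsl1 and Adrb3 had no probe set in the annotation used, so these 5 were not analysed here. All 29 passed the filter on low signal, and 13645 genes did so in all.

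The RNA came from aortas of mice aged 6 weeks, either with Smad4 deleted specifically in smooth muscle (Smad4-KO) or wild-type littermates (WT), and was hybridised to Affymetrix arrays. Each array took 400 ng of RNA from 3 to 5 pooled vessels. Each genotype had 2 arrays, which the titles number as biological replicates 1 and 2. The labels name no strain, sex, Cre line or promoter, and do not say how much of the tissue around the aorta was taken with it.

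The aorta lies in a sleeve of perivascular fat. Around the chest part of the mouse aorta this fat resembles brown fat, and around the abdominal part it resembles white fat. White fat cells store triglyceride in 1 large droplet and secrete hormones such as adiponectin and leptin. Brown fat cells hold many small droplets and many mitochondria, in which uncoupling protein 1 lets protons leak back across the inner membrane and so turns fuel into heat. Pparg and Cebpa drive the programme that all fat cells share, while Prdm16 and Ppargc1a favour the brown one.

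Array-wide measures were as follows. Median signals lay between 111 and 137. Smad4, the targeted gene, read 4394 and 3819 in WT, against 2676 and 3580 in Smad4-KO on its brightest probe set (log2 difference -0.40, adjusted p = 0.626), but the labels do not name the deleted exons, so a probe set outside them would check nothing. Xist, which females express from their silenced X chromosome, read 15192 in WT and 6223 in Smad4-KO on the arrays numbered 1, but 90.0 and 135 on the arrays numbered 2. The Dap spike-in, whose 3' over 5' signal follows cRNA labelling, split the arrays in another way. It was 10.02 and 14.1 on WT replicate 1 and Smad4-KO replicate 2, and 2.96 and 3.62 on WT replicate 2 and Smad4-KO replicate 1. The 3' over 5' signal of beta-actin, from the samples themselves, split them as Dap did, at 11.4 and 12.8 against 4.19 and 2.83 in that order. Of the defining markers of fat cells, Adipoq lay between 5859 and 23589, Retn between 1378 and 6399, Cidec between 610 and 3186 and Lipe between 446 and 1555. Lep was dim, between 10.4 and 292, and Plin1 and Cfd were not measured. Fabp4, which other cells also make, lay between 21528 and 41249. Ucp1, which defines brown fat cells, ranged from 69.9 to 9417.

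The first comparison asks whether fat genes differed between aortas with and without Smad4 in smooth muscle. None of the 29 was called, and the pools of a genotype differed from each other by as much as or more than the genotypes did for most of them. The arrays numbered 1 carried more fat gene signal than those numbered 2 in both genotypes. Both Smad4-KO arrays read below both WT arrays for 5 of 29 members, Ucp1, Dio2, Prdm16, Ppargc1a and Plin4, a share no larger than the 21.4% of all genes. Other brown fat genes, Cidea, Cox8b and Elovl3, overlapped between genotypes, as did Adipoq, Retn and Cidec of white fat cells.

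With limma and Benjamini-Hochberg adjustment over all genes tested, 0 of 29 members passed an adjusted p of 0.05, against 6.31% of all genes (4.92% higher and 1.39% lower in Smad4-KO). At an unadjusted p under 0.05, 4 members passed, all lower in Smad4-KO (Ucp1, Dio2, Ppargc1a and Prdm16). Of all genes, 19.3% passed in either direction and 6.16% in that direction. The log2 difference, Smad4-KO minus WT, was negative for 21 of 29 members, against 50.3% of all genes. Its median was -0.74 over the members and -0.01 over all genes tested. Both Smad4-KO arrays read above both WT arrays for 0 members, against 25.9% of all genes. At equal replicate number Smad4-KO was below WT in both pairs for 16 members (27.8% of all genes) and above in both for 3 members, Retn, Car3 and Pparg (30.9%). The median of the members rested on single arrays: it was 0.12 without WT replicate 1 and 0.16 without Smad4-KO replicate 2. Less signal in these whole-vessel samples can mean fewer fat cells, less RNA per fat cell or less signal from other cells. These cannot be told apart.

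**Figure D1:**
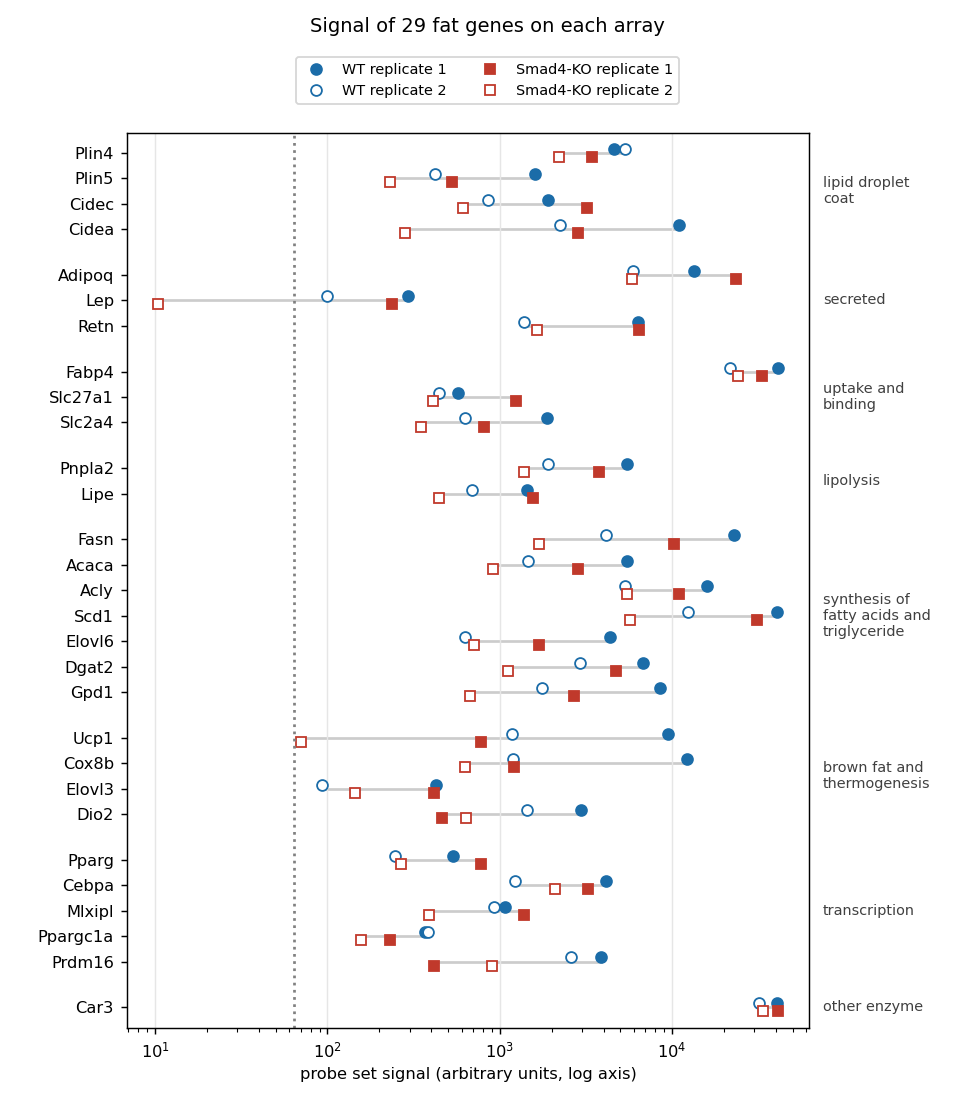
Signal of each of 29 fat genes (rows, grouped by role) on the 4 arrays, on a logarithmic axis in arbitrary units; blue circles are WT, red squares Smad4-KO, filled symbols replicate 1, open symbols replicate 2, and the dotted line marks a signal of 64. For 25 of 29 genes the filled symbol of each genotype lies to the right of its open symbol. Signals of different genes come from different probe sets and are not to be compared.

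The second comparison sets the pools of each genotype against each other. Replicate 1 read higher than replicate 2 in both genotypes for 25 of 29 members, against 25.1% of all genes, and 0 members read lower on replicate 1 in both, against 19.5%. For 19 members replicate 1 was over 2-fold higher in both genotypes, against 1.19% of all genes. The median difference between replicate 1 and replicate 2 was 1.55 on the log2 scale in WT and 1.55 in Smad4-KO, against 0.03 and 0.05 over all genes. The WT pools lay further apart than the genotype means for 20 members (46.0% of all genes), the Smad4-KO pools for 22 (52.1%), and both for 18 (33.9%). After quantile normalization 26 of 29, and after median centring 27 of 29, were higher on replicate 1 in both genotypes. With the mean of each gene's probe sets 27 of 29 were, but those over 2-fold higher in both numbered 12, against 1.26% of all genes. That number was 18 after quantile normalization and 20 after median centring. With 2 pools a genotype, the spread between pools was not tested. The arrays numbered 1 also held the high Xist signals, and the part of this difference in the result was not tested.

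**Figure D2:**
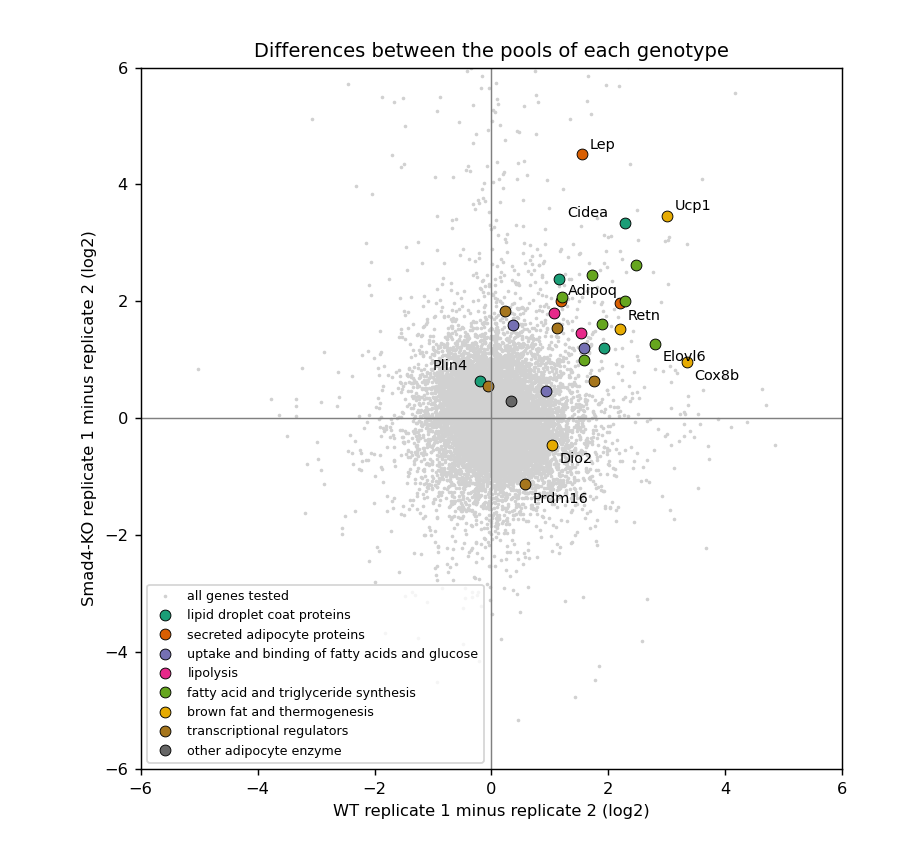
Log2 difference between replicate 1 and replicate 2 in WT (horizontal axis) and in Smad4-KO (vertical axis) for the 13645 genes tested (grey) and the 29 fat genes (coloured by role). Most fat genes lie in the upper right, where replicate 1 is higher in both genotypes, while Dio2 and Prdm16 lie below the horizontal line. The axes leave out 28 of the genes tested.

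Markers of some other cells differed between the genotypes. The summed signal of 10 macrophage markers was 9615 to 14968 in WT and 57300 to 83408 in Smad4-KO, and 7 of the 10 rose, Fcgr1, Ptprc, Tyrobp and Cd68 the most (3.79, 3.66, 3.52 and 3.45 on the log2 scale). Adgre1 rose by 2.23, while Csf1r did not pass (adjusted p = 0.154). That of 7 sympathetic neuron markers was 1520 to 1637 in WT and 20676 to 30385 in Smad4-KO, and all 7 rose, Snap25 by 5.95, Th by 5.03, Prph by 4.59 and Dbh by 4.54. Smooth muscle markers summed to 135388 and 162209 in WT and to 63283 and 71325 in Smad4-KO, and 4 of 8 fell (log2 differences -2.58 for Cnn1, -2.55 for Lmod1, -2.34 for Smtn and -1.71 for Mylk). Myh11 and Acta2 did not pass (-1.82, adjusted p = 0.0633, and -0.57, adjusted p = 0.447). Skeletal and cardiac muscle markers stood apart on a single array: 11 of them summed to 1100 to 1741 on the other arrays and to 13814 on Smad4-KO replicate 2, where Acta1 read 1989 and Ckm 516, while Myh6, of heart muscle, fell by 2.44. Endothelial markers summed to 12784 and 10964 in WT and to 13389 and 7801 in Smad4-KO (replicates 1 and 2 in each). Of these 8 markers 0 passed in limma, and 1 had an unadjusted p under 0.05 (Kdr, 1.40, adjusted p = 0.113), against 19.3% of all genes. Of 4 Schwann cell markers tested, Mbp alone rose, by 1.99. The part of these cells in the values below was not tested.

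**Figure D3:**
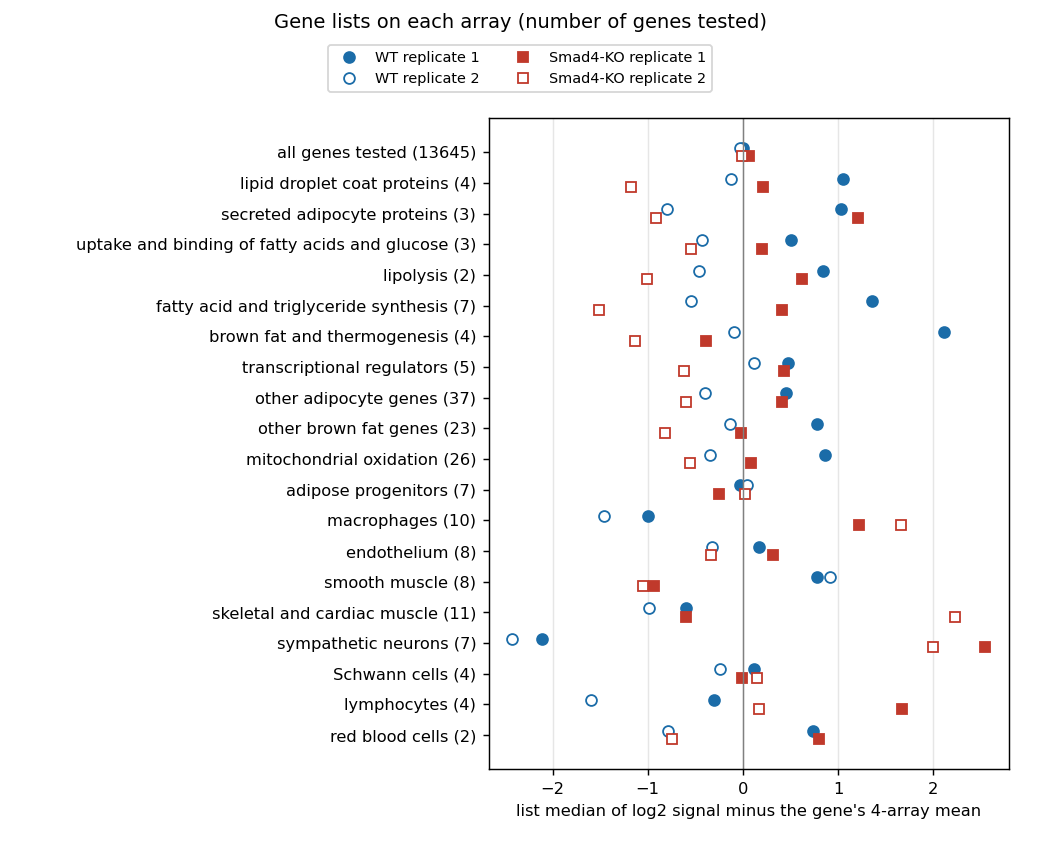
For each gene list (rows, with the number of genes tested), the median over its genes of the log2 signal on an array minus the gene's mean over the 4 arrays; blue circles are WT, red squares Smad4-KO, filled symbols replicate 1, open symbols replicate 2. Lists of fat cell genes have filled symbols to the right of open ones in each genotype. So do the mitochondrial, endothelium, neuron, lymphocyte and red blood cell lists. Macrophage, smooth muscle, neuron and lymphocyte lists separate the colours, and so does the list of brown fat and thermogenesis.

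Secreted proteins of fat cells had no common genotype difference. Adipoq, which encodes adiponectin, a hormone that raises insulin sensitivity, read 13468 and 5891 in WT, against 23589 and 5859 in Smad4-KO (replicates 1 and 2 in each). The arrays numbered 2 were almost alike, and the genotypes overlapped. The log2 difference was 0.40 ± 0.76 (standard error from limma, 2 against 2 arrays; 95% interval -1.51 to 2.31; adjusted p = 0.870). Retn, the gene of resistin, read 6339 and 1378 in WT, against 6399 and 1640 in Smad4-KO, so the arrays of equal number were within 1.19-fold of each other while the pools of a genotype differed 4.60-fold and 3.90-fold. Its difference was 0.13 ± 0.94 (adjusted p = 0.970). Lep, which encodes the satiety hormone leptin, was dim at 292 and 99.7 in WT, against 237 and 10.4 in Smad4-KO. Only Smad4-KO replicate 2 stood apart, below a signal of 64, and the difference of -1.79 ± 1.47 (adjusted p = 0.644) became -0.47 with signals under 64 raised to 64. Without Smad4-KO replicate 1 the Lep difference was -4.04 and passed (adjusted p = 0.038). Its lone Smad4-KO array was then that dim one.

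Among the proteins that coat lipid droplets, Plin4 and Plin5 are perilipins, and Cidec and Cidea enlarge droplets by fusing them. Cidec, typical of white fat, read 1914 and 856 in WT, against 3186 and 610 in Smad4-KO. The Smad4-KO pools lay outside the WT range, 1 above and 1 below it, and the log2 difference was 0.12 ± 0.85 (adjusted p = 0.969). Cidea, which is more abundant in brown fat, read 10952 and 2233 in WT, against 2854 and 280 in Smad4-KO. At equal replicate number Smad4-KO was 3.84-fold and 7.97-fold lower, but the pools differed 4.90-fold in WT and 10.2-fold in Smad4-KO and the genotypes overlapped (-2.47 ± 1.26, 95% interval -5.62 to 0.69, adjusted p = 0.393). The Cidea difference ranged from -4.14 without Smad4-KO replicate 1 to -0.79 without Smad4-KO replicate 2. Plin5, which couples droplets to mitochondria in cells that burn fat, read 1603 and 423 in WT, against 528 and 230 in Smad4-KO. WT replicate 1 alone was high, and the difference was -1.24 ± 0.74 (adjusted p = 0.480). Plin4 read 4617 and 5305 in WT, against 3408 and 2191 in Smad4-KO. It is the member of this group in which the genotypes did not overlap, and replicate 1 was the lower array in WT but the higher in Smad4-KO. Its difference of -0.86 ± 0.35 did not pass (adjusted p = 0.273).

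Genes of fatty acid and glucose uptake were led by Fabp4, the fatty acid carrier of the fat cell, which capillary endothelium and macrophages also make. Its brightest probe set read 41249 and 21528 in WT, against 33256 and 24140 in Smad4-KO, with the genotypes nested and a difference of -0.07 ± 0.43 (adjusted p = 0.963). Slc2a4, the insulin-regulated glucose transporter of fat and muscle, read 1870 and 627 in WT, against 807 and 350 in Smad4-KO (-1.03 ± 0.67, adjusted p = 0.523). Slc27a1, a fatty acid transport protein, read 573 and 442 in WT, against 1234 and 410 in Smad4-KO (0.50 ± 0.57, adjusted p = 0.757). For each of the 3 the WT range and the Smad4-KO range overlapped. Lipolysis genes did the same. Pnpla2, the lipase that starts the breakdown of triglyceride, read 5501 and 1911 in WT, against 3775 and 1378 in Smad4-KO (-0.51 ± 0.70, adjusted p = 0.810). Lipe, hormone-sensitive lipase, read 1443 and 687 in WT, against 1555 and 446 in Smad4-KO (-0.26 ± 0.70, adjusted p = 0.913).

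The 7 genes of fatty acid and triglyceride synthesis had differences from -1.52 to -0.25, with a median of -0.81. In limma 0 of 7 passed (6.31% of all genes), and 0 had an unadjusted p under 0.05 (19.3% of all genes). All 7 were higher on replicate 1 in both genotypes. Fasn, the fatty acid synthase, read 22823 and 4113 in WT, against 10292 and 1679 in Smad4-KO. The order of the arrays interleaved the genotypes: WT replicate 1 was highest, then Smad4-KO replicate 1, then WT replicate 2. The difference of -1.22 ± 1.13 (adjusted p = 0.691) was smaller than the 5.55-fold and 6.13-fold gaps between pools. Acaca, which makes malonyl-CoA, the building block that Fasn uses, kept the same order at 5438 and 1466 in WT, against 2825 and 919 in Smad4-KO (-0.81 ± 0.81, adjusted p = 0.716). Scd1, which puts the double bond into stearate, kept it too at 40372 and 12301 in WT, against 31112 and 5715 in Smad4-KO (-0.74 ± 0.95, adjusted p = 0.788).

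Gpd1, which supplies the glycerol backbone of triglyceride, had the most negative difference of the synthesis genes. It read 8475 and 1746 in WT, against 2684 and 672 in Smad4-KO, so that Smad4-KO was 3.16-fold and 2.60-fold lower at equal replicate number, while the genotypes overlapped (-1.52 ± 0.96, adjusted p = 0.510). Dgat2, which adds the last acyl chain, read 6757 and 2910 in WT, against 4721 and 1118 in Smad4-KO (-0.95 ± 0.78, adjusted p = 0.644). Acly, which makes cytosolic acetyl-CoA, read 15999 and 5314 in WT, against 10991 and 5481 in Smad4-KO (-0.25 ± 0.64, adjusted p = 0.908). In Elovl6, the elongase of palmitate, WT replicate 1 alone stood high, at 4386 against 629 on the other WT array and 1689 and 704 in Smad4-KO (-0.61 ± 0.97, adjusted p = 0.844).

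The 4 genes of brown fat and heat production tested had a median difference of -2.02, the most negative of the roles. In limma 0 of 4 passed, against 6.31% of all genes. At an unadjusted p under 0.05 there were 2, against 19.3% of all genes. Ucp1, the uncoupling protein, read 9417 and 1170 in WT, against 773 and 69.9 in Smad4-KO. The highest Smad4-KO array stayed under the lowest WT array, with Smad4-KO 12.2-fold lower among the arrays numbered 1 and 16.7-fold lower among those numbered 2, the last signal being close to 64. The pools differed 8.05-fold in WT and 11.1-fold in Smad4-KO, and the log2 difference of -3.84 ± 1.42 (95% interval -7.39 to -0.29) did not pass (adjusted p = 0.222). Single arrays moved it: it was -2.10 without Smad4-KO replicate 2, -2.33 without WT replicate 1, -5.34 without WT replicate 2 and -5.57 without Smad4-KO replicate 1. Cox8b, the cytochrome c oxidase subunit of brown fat and striated muscle, read 12117 on WT replicate 1 against 1193 on WT replicate 2 and 1211 and 625 in Smad4-KO. A single array was high, and the difference of -2.13 ± 1.09 (adjusted p = 0.394) was -0.46 without it. Elovl3, an elongase of very long fatty acids in brown fat, followed the replicate number alone, at 424 and 92.6 in WT, against 417 and 144 in Smad4-KO (0.31 ± 0.86, adjusted p = 0.914).

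Dio2, which converts thyroxine to its active form inside brown fat and other cells, read 2952 and 1432 in WT, against 464 and 639 in Smad4-KO. The genotypes did not overlap, and replicate 1 was the higher array in WT but the lower in Smad4-KO. Its difference of -1.92 ± 0.45 (95% interval -3.04 to -0.79) was a 3.78-fold lower mean that did not pass (adjusted p = 0.0763). Over 14 alternatives its adjusted p lay between 0.0333 and 0.344, and 3 passed.

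The regulators divided in the same way. Prdm16, which favours brown over muscle fate and is also expressed in cells of the artery wall, read 3843 and 2579 in WT, against 414 and 907 in Smad4-KO. The lowest WT array was well above the highest Smad4-KO array, with Smad4-KO 9.29-fold and 2.84-fold lower at equal replicate number. The difference of -2.36 ± 0.48 (95% interval -3.56 to -1.16), 5.14-fold, had an adjusted p of 0.0527 and did not pass. Over 14 alternatives the adjusted p of Prdm16 lay between 0.0146 and 0.207 and passed under 5, among them leaving out Smad4-KO replicate 2 (-2.93, adjusted p = 0.0277). Ppargc1a, the coactivator that raises mitochondrial number and Ucp1 expression, read 370 and 383 in WT, against 230 and 156 in Smad4-KO. The WT pools were alike, both Smad4-KO arrays lay below them, and the difference of -0.99 ± 0.33 did not pass (adjusted p = 0.186).

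Pparg, the nuclear receptor at the head of fat cell formation, read 534 and 246 in WT, against 783 and 268 in Smad4-KO (0.34 ± 0.64, adjusted p = 0.870). Cebpa, its partner, read 4116 and 1218 in WT, against 3243 and 2080 in Smad4-KO (0.21 ± 0.63, adjusted p = 0.921). Mlxipl, which encodes the glucose-sensing factor ChREBP, read 1078 and 922 in WT, against 1380 and 387 in Smad4-KO (-0.45 ± 0.63, adjusted p = 0.814). In these 3 genes the genotypes overlapped and replicate 1 was the higher array of each pair. Car3, a carbonic anhydrase abundant in fat and slow skeletal muscle, read 40472 and 32059 in WT, against 40985 and 33498 in Smad4-KO (0.04 ± 0.32, adjusted p = 0.973). Skeletal muscle markers were high on Smad4-KO replicate 2, and their part in the Car3 signal was not tested.

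**Figure D4:**
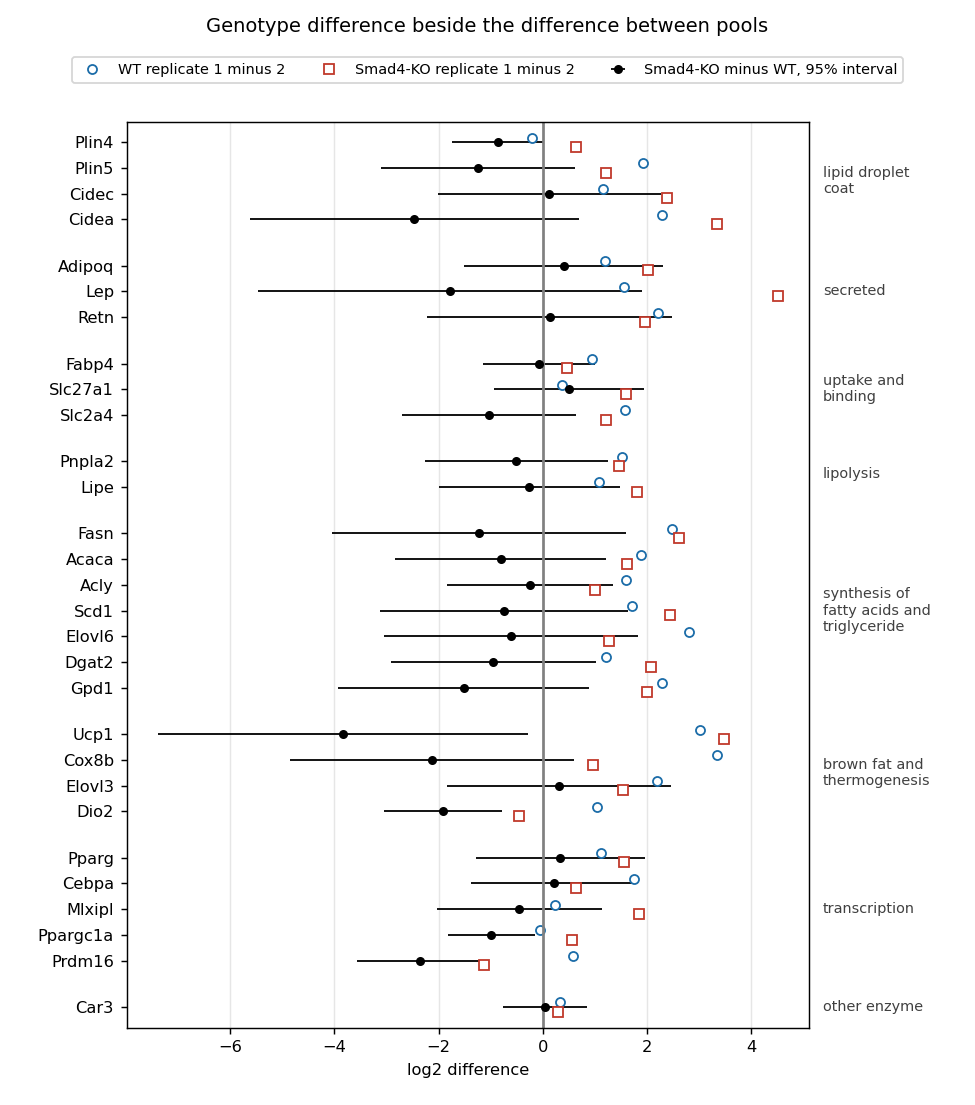
For each fat gene (rows, grouped by role), the log2 difference Smad4-KO minus WT with its 95% interval from limma (black) and the log2 difference between replicate 1 and replicate 2 in WT (blue circles) and in Smad4-KO (red squares). The interval excludes 0 without adjustment for Ucp1, Dio2, Ppargc1a and Prdm16, and the pool differences lie to the right of 0 in both genotypes for 25 of 29 genes.

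Of the members, 16 had more than 1 probe set. With every probe set fitted by itself, 58 of the 62 member probe sets passed the filter and 0 of them an adjusted p of 0.05, against 0.782% of all 26209 probe sets tested. At an unadjusted p under 0.05 there were 7 of the 58, against 3692 of all 26209. The 7 belong to Dio2, Prdm16 and Ppargc1a. A dimmer Prdm16 probe set read 698 and 657 in WT, against 103 and 166 in Smad4-KO, a difference of -2.38 ± 0.39 (adjusted p = 0.0762), close to that of the brightest. The other Prdm16 probe sets, dimmer still, had differences of -0.55 and -0.06. The dimmer Dio2 probe sets had differences of -1.10 and -0.12. Averaging all probe sets per gene gave a difference of -1.05 for Dio2 (adjusted p = 0.344) and -1.34 for Prdm16 (adjusted p = 0.117). Of 29 dimmer probe sets that passed the filter, 27 had the sign of their gene's brightest one. The exceptions belong to Fabp4 and Acly. That Fabp4 probe set read 982 and 1593 in WT, against 3743 and 1071 in Smad4-KO, so it ordered the WT pools the other way from the brightest one. Another dimmer Fabp4 probe set read 595 and 1103 in WT, against 324 and 1182 in Smad4-KO, higher on replicate 2 in both genotypes. The remaining one kept the order of the brightest, at 15227 and 5333 in WT, against 10542.5 and 7536 in Smad4-KO. A dimmer Car3 probe set spread more widely than the brightest, at 6118 and 5607 in WT, against 18818 and 2687 in Smad4-KO, where the brightest lay between 32059 and 40985 and each array's brightest probe set read 50167 to 73520.

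The sequences before the start sites of 4 members are shown, since they stand for the 2 patterns above. Ucp1, Dio2 and Prdm16 had Smad4-KO arrays below WT arrays, and Adipoq followed the replicate number. Ucp1 had both patterns, as replicate 1 was its higher array in each genotype. Each sequence is the 250 bases before the gene's start on GRCm38.p6 from RefSeq, 5′ to 3′ on the gene's strand. Capitals mark exact matches on either strand to TATAAA (the TATA box), AGGTCA (a core element of nuclear receptor sites), CCAAT (the CCAAT box) and TTGCNNAA (a C/EBP site).
Ucp1, chr8:83290098-83290347, plus strand: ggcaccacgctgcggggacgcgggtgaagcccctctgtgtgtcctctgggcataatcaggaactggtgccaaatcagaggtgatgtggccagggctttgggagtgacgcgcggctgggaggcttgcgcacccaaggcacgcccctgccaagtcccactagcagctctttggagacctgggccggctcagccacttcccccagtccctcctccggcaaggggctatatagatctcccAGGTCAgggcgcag
Dio2, chr12:90739039-90739288, minus strand: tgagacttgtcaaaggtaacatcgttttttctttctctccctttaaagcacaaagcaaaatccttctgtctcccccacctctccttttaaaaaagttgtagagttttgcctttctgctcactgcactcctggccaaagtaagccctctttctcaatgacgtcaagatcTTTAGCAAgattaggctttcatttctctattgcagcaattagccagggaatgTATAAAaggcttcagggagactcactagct
Prdm16, chr4:154636874-154637123, minus strand: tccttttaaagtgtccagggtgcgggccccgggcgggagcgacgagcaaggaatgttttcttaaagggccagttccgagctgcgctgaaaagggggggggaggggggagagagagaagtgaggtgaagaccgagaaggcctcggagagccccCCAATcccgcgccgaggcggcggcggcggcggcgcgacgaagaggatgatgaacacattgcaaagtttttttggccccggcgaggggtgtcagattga
Adipoq, chr16:23146286-23146535, plus strand: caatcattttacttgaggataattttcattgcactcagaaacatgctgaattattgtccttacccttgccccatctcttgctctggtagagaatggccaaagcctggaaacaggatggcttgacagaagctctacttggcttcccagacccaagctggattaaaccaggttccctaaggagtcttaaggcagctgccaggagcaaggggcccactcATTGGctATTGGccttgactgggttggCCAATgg
The capitals in Ucp1 are AGGTCA, those in Dio2 are a C/EBP match followed by TATAAA, and those in Prdm16 and Adipoq are CCAAT or its complement ATTGG. No matches overlapped. Of 32851 promoters of that length, 12.4% hold TATAAA, 14% AGGTCA, 33.8% CCAAT and 9.56% the C/EBP letters. RefSeq entries were found for 21 of the 29 members, with 29 start sites, of which 3, 6, 10 and 4 held these motifs in that order. A match is only a match of letters.

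Other genes of the pathway came from lists of names. Of 37 other fat cell genes tested, 1 rose and 0 fell, against 4.92% and 1.39% of all genes. It was Sncg, gamma-synuclein, which is made in fat cells and in peripheral neurons: it read 688 and 389 in WT, against 3642 and 4114 in Smad4-KO (2.90 ± 0.38, 7.48-fold, adjusted p = 0.0198), beside neuron markers that all rose. The call was kept under 10 of 14 alternatives and lost without WT replicate 2 (adjusted p over the 14 alternatives 0.00295 to 0.0974). The median difference of the list was -0.05, and 26 of 37 were higher on replicate 1 in both genotypes.

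Of 23 other brown fat genes tested, 0 rose and 2 fell, against 1.39% of all genes that fell. The list's median difference was -0.74, and 20 of 23 differences were negative. P2rx5, an ATP-gated channel of brown fat cells and muscle, fell 3.44-fold, from 799 and 1181 in WT to 271 and 294 in Smad4-KO (-1.78 ± 0.34, adjusted p = 0.0438). Hspb7, a small heat shock protein of muscle that brown fat also makes, fell 4.46-fold, from 7092 and 7392 to 1137 and 2318 (-2.16 ± 0.42, adjusted p = 0.0482). Replicate 1 was the lower array of each genotype for both genes. Each call was kept under 6 of 14 alternatives (adjusted p 0.0230 to 0.235 for P2rx5 and 0.0132 to 0.213 for Hspb7). That of P2rx5 was lost on leaving out any of the 4 arrays, and that of Hspb7 without WT replicate 1, WT replicate 2 or Smad4-KO replicate 1 and after quantile normalization. Smooth muscle markers were lower on the same arrays, and their part in these falls was not tested. Cox7a1, another subunit of cytochrome c oxidase in brown fat and muscle, read 3836 and 325 in WT, against 240 and 255 in Smad4-KO, high on WT replicate 1 alone as Cox8b was. It was chosen after its values were seen, and its difference was -2.17 ± 1.12 (adjusted p = 0.395). Zic1, Lhx8, Bmp8b and Cited1 were below the filter on low signal.

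Mitochondrial genes of fuel oxidation had negative differences in 26 of 26 genes tested, from -1.04 to -0.01 with a median of -0.41. In limma 0 passed (6.31% of all genes), and 0 had an unadjusted p under 0.05 (19.3% of all genes). The lowest unadjusted p were those of Acadvl, which starts the oxidation of very long fatty acids (7029 and 2813 in WT, 3134 and 1485 in Smad4-KO, adjusted p = 0.449), and Uqcrc1, a subunit of complex III (7892 and 4273, 4609 and 2297, adjusted p = 0.476). Replicate 1 was higher in both genotypes for 19 of 26, and the list's median difference was -0.84 among the arrays numbered 1 and -0.24 among those numbered 2. Markers of fat progenitor cells did not follow the replicate number: Pdgfra, their surface receptor, read 2769 and 3411 in WT, against 3314 and 3215 in Smad4-KO. Of 7 tested, 1 rose (4.92% of all genes did) and 0 fell. It was Dpp4, a surface peptidase (87.2 and 94.9 in WT, 426 and 510 in Smad4-KO, 2.36 ± 0.30, adjusted p = 0.0188), a call kept under 7 of 13 alternatives and lost without either WT array. Dlk1 and Zfp423 did not pass (0.01 and -0.49). Nor did Cd34 (6364 and 6209 in WT, 4018 and 3668 in Smad4-KO, -0.71, adjusted p = 0.271), Pi16 (9637 and 6583, 3385 and 5590, -0.87, adjusted p = 0.328) or Cd55 (0.95, adjusted p = 0.255). Both Smad4-KO arrays read below both WT arrays for 3 of the 7, Cd34, Pi16 and Zfp423 (21.4% of all genes). They read above both for 2, Dpp4 and Cd55 (25.9%).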

How the data were processed

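Signals of 45101 probe sets on 4 Affymetrix arrays were analysed, 2 of WT and 2 of Smad4-KO aortas. The deposited table holds 1 linear intensity per probe set and array. Affymetrix Expression Console and RMA are named per the submitters' processing notes, but the values are not on a log scale and the mean after trimming 2% at each end is 500.0 on every array, the form MAS5 gives. Detection calls were not used here. Probe sets paired with 1 symbol (34945) were kept, those with several (932) or none (9160) and 64 controls left out. Symbols matched RefSeq (GRCm38.p6, for names) for 18032 of 18193 genes. Signals were taken to log2. A gene was its probe set of highest mean over the arrays, and genes below the 25th percentile (5.64) were left out.

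Genotypes were compared with limma 3.58.1 (R 4.3.3, lmFit and eBayes, two-sided), adjusted by Benjamini-Hochberg over 13645 genes at 0.05. Standard errors and 95% intervals come from that fit. The procedure was tested on simulated data. The labels call the arrays of a genotype biological replicates. All members are named. Of each other list, up to 4 called genes of largest difference are named, or the 2 of lowest p where none was called, with the first 3 of each cell type list where they passed the filter and bear on a result. Smad4 and Xist are named too. The members and lists were chosen with earlier results of these data known. The alternatives were other scaling, filters, probe set rules, blocks, variance settings, a floor of 64 and leaving out each array. The labelling pair block joined arrays of like Dap ratio: WT replicate 1 with Smad4-KO replicate 2, and WT replicate 2 with Smad4-KO replicate 1. No label names these pairs. Figures were made with Python 3.11.15 and matplotlib 3.10.9.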

Additional observations from a re-analysis of the deposited data

How the results depend on the processing

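Of 403 values of the 29 members under 14 alternatives, 352 kept their direction and side of the threshold, 39 turned sign and 12 newly passed. No member was called higher under any of them. Members called lower numbered 1 after median centring (Prdm16), 2 with a filter at the 50th percentile and 2 with trended, robust variances (Dio2 and Prdm16 in each), and 0 to 1 on leaving out each array (Lep without Smad4-KO replicate 1, Prdm16 without Smad4-KO replicate 2). Over all genes tested, 762 were called after median centring and 1004 with trended, robust variances. With the filter at the 50th percentile 704 of 9097 were called. Members called with the replicate block numbered 5: Ucp1 (adjusted p = 0.00057), Cidea (0.00702), Prdm16 (0.0146), Dio2 (0.0333) and Cox8b (0.0418). The replicate numbers are not shown to pair the samples: pool differences of WT and Smad4-KO correlated at -0.01 across all genes tested and 0.41 across the members, and genes are not independent. Of all genes, 861 were called, against 1321 with the replicate block, 518 with the mean of probe sets, 205 with every probe set by itself, 0 without a filter (2788 at an unadjusted p under 0.05 in limma), 0 with the labelling pair as a block (2658) and 0 to 808 on leaving out each array (0 without WT replicate 2, with 1791 unadjusted, and 270 without WT replicate 1). The median over the members, -0.74, lay between -1.27 and 0.16 on leaving out each array. Signs turned after median centring, which shifts all genes by -0.15, for Cidec (-0.032), Retn (-0.022) and Car3 (-0.11). With the mean of probe sets they turned for Fabp4 (0.050) and Lipe (2.11). That mean takes in a dimmer Lipe probe set below the filter on low signal. It read 1.34 and 1.34 in WT, against 44.0 and 20.2 in Smad4-KO. On leaving out each array, which leaves its genotype 1 array assumed to vary like the other genotype, 19 members turned sign: Acaca (-1.75 to 0.14), Acly (-1.04 to 0.55), Adipoq (-0.60 to 1.41), Car3 (-0.13 to 0.21), Cebpa (-0.66 to 1.09), Cidec (-1.07 to 1.32), Dgat2 (-1.99 to 0.090), Elovl3 (-0.79 to 1.41), Elovl6 (-2.01 to 0.79), Fabp4 (-0.54 to 0.40), Fasn (-2.53 to 0.087), Lep (-4.04 to 0.47), Lipe (-1.16 to 0.64), Mlxipl (-1.37 to 0.47), Pnpla2 (-1.27 to 0.26), Pparg (-0.44 to 1.11), Retn (-0.97 to 1.23), Scd1 (-1.96 to 0.48) and Slc27a1 (-0.29 to 1.30). The other 10 kept their sign, with wide ranges for Ucp1 (-5.57 to -2.10), Cidea (-4.14 to -0.79), Cox8b (-3.80 to -0.46), Gpd1 (-2.66 to -0.38) and Plin5 (-2.20 to -0.28). The causes were not tested. The alternatives for Sncg, P2rx5, Hspb7 and Dpp4 and the replicate 1 counts by setting were chosen after seeing the data. Lep, Elovl3 and Ppargc1a fell below the 50th percentile and have no value there. The number of arrays, 2 a genotype, limits the precision.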

Other observations

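Both red blood cell markers tested also followed the replicate number. Alas2, which starts haem synthesis in red cell precursors, read 771 and 312 in WT, against 706 and 227 in Smad4-KO (log2 difference -0.29, adjusted p = 0.90), and Slc4a1, the anion exchanger of red cells, read 158 and 47.6 in WT, against 188 and 69.5 in Smad4-KO (0.40, adjusted p = 0.867). Of 4 lymphocyte markers tested, 0 passed in limma. At an unadjusted p under 0.05 there were 2, Cd3g at 2.33 and Cd2 at 1.66, against 19.3% of all genes. Ms4a1, the B cell antigen CD20, was chosen after its values were seen and stood high on Smad4-KO replicate 1 alone, at 1074 against 113 on Smad4-KO replicate 2 and 180 and 95.2 in WT (1.41, adjusted p = 0.598).

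Genes of fat metabolism with a different array order from most members were chosen after their values were seen. Plin2, the droplet coat protein that many cell types make, read 6008 and 2070 in WT but 7117 and 8300 in Smad4-KO (1.12 ± 0.55, adjusted p = 0.369). Cebpb, a factor of early fat cell formation and of the inflammatory response, was highest on Smad4-KO replicate 2 at 9063, against 3552 on Smad4-KO replicate 1 and 4438 and 2590 in WT (0.74 ± 0.55, adjusted p = 0.595). Aoc3, an amine oxidase of fat and smooth muscle cells, had nearly equal pools at 6384 and 6287 in WT, against 2549 and 2864 in Smad4-KO (-1.23 ± 0.29, adjusted p = 0.0788).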
